A study of Mus musculus with 28 samples.

Results

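The genes described here are the stress-response transcription factor gene Atf4, 4 genes that respond to it in stressed cells (Ddit3, Trib3, Chac1 and Asns) and 5 enzymes that make serine and pass its carbon to folate (Phgdh, Psat1, Psph, Shmt2 and Mthfd2). They were chosen by name, with earlier results of these data known. They are the rows of the expression table that carry one of these 10 symbols, and all 10 were found among 43143 rows, of which 18509 carry a symbol. RNA was measured in the mouse Lewis lung carcinoma line 3LL in 3 genotypes. WT cells were unedited. KEAP1-KO cells carried a homozygous 1-base insertion in Keap1 exon 2 and were grown from a single colony. DKO cells were KEAP1-KO cells with Nrf2 (gene symbol Nfe2l2) also edited, in exon 5, with a 1-base insertion on 1 allele and a 1-base deletion on the other, again from a single colony. KEAP1 marks the transcription factor NRF2 for degradation, so KEAP1 loss is a way to keep NRF2 active, and DKO cells test what remains without both. In the paper's immunoblots KEAP1 was not detectable and NRF2 was raised in KEAP1-KO cells, and DKO cells lacked both. The RNA data described here hold no protein measurement.

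There were 7 groups of 4 libraries. The 3 cultured groups (WT, KEAP1-KO and DKO cells, grown in RPMI medium with 10% serum) gave 12 libraries. The 4 tumor groups gave 16 libraries from subcutaneous grafts in male albino C57BL/6 mice that were 6 weeks old, taken after 10 days. Every mouse of Experiment A carried WT cells on the left flank and KEAP1-KO cells on the right, and every mouse of Experiment B carried KEAP1-KO cells on the left and DKO cells on the right. No label ties a tumor to its mouse, so the tumor tests treat tumors that share mice as independent. Flank and genotype cannot be told apart within an experiment, and the study made a pair of single-colony lines with the Keap1 edit and the sources do not say which of them gave the RNA libraries, so colony and genotype cannot be told apart either. Nothing in the labels says that the 4 libraries of a cell group were separate cultures, so the p-values measure the spread between these libraries, which may be technical. Depth, recovered from the steps of the low values, was 4222365 to 7524264 reads per library with a median of 5619787.

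ATF4 is made when stress kinases phosphorylate the initiation factor eIF2alpha, as happens when amino acids run short or proteins misfold, and most of its rise comes from translation of an mRNA that is already there. It then raises genes for amino acid synthesis and uptake, tRNA charging and, when stress lasts, cell death. Serine synthesis branches off glycolysis in 3 steps, by PHGDH, PSAT1 and PSPH. In mitochondria SHMT2 then splits serine into glycine and a carbon unit on folate, which MTHFD2 oxidises. In human lung cancer cells active NRF2 is known for raising serine synthesis genes through ATF4.

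Promoters are shown first because ATF4 and NRF2 recognise short DNA elements, and the members differ in which of these letters lie near their start sites. Windows from 250 bases before to 50 bases after the RefSeq start (mouse build GRCm38.p6) were searched on both strands for TGATGNAA, the C/EBP-ATF response element bound by ATF4 dimers, and for TGACNNNGC, the core of the antioxidant response element bound by NRF2. All 10 members had a window, 11 in all. The C/EBP-ATF letters were in 3.97% of 32851 windows and in those of 3 members, Chac1, Trib3 and Asns. The antioxidant core was in 12.4% of all windows and in those of 3 members, Phgdh, Psph and Asns. The windows of the first 3 follow, 5′ to 3′ on the gene's strand, from 250 bases before to 30 after the start, with the match in capitals.
Chac1, chr2:119350992-119351271, plus strand: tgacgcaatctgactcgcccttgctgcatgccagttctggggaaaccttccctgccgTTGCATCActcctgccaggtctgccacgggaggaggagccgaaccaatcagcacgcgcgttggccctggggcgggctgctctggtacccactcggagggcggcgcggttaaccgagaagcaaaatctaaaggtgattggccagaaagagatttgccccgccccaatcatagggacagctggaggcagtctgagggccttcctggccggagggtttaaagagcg
Trib3, chr2:152344031-152344310, minus strand: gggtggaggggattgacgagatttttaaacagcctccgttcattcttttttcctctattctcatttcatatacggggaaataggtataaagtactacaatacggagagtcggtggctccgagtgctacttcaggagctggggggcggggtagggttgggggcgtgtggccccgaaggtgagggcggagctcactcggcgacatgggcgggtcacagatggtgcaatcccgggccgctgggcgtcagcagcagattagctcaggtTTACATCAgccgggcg
Asns, chr6:7693180-7693459, minus strand: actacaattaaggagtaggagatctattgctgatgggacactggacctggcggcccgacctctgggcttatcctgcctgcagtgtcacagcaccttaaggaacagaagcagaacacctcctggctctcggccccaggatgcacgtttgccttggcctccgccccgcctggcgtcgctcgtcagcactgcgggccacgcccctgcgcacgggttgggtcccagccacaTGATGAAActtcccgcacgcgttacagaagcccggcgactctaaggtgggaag

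In Chac1 the capitals lie at -193 to -186 from the start and in Trib3 at 15 to 22, both on the reverse strand, and in Asns at -23 to -16 on the forward strand. The antioxidant core is shown next with 16 bases on either side, again in capitals and on the reverse strand of each gene, at -53 to -45 in Phgdh, 5 to 13 in Psph and -172 to -164 in Asns.
Phgdh, chr3:98339998-98340038, minus strand: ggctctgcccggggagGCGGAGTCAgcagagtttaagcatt
Psph, chr5:129787225-129787265, minus strand: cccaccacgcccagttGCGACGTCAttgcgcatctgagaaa
Asns, chr6:7693357-7693397, minus strand: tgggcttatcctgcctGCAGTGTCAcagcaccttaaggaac
Asns was the only member with both, and its matches did not overlap. A match is a description of the letters and not a binding site, and a window without one says only that these letters were not in these 300 bases.

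Each member is 1 row of the table, and the row's identifier names a single transcript except for Chac1, which is a gene row. The named transcript is annotated as protein coding for Ddit3, as a retained-intron form for Atf4, Phgdh, Psat1, Psph and Shmt2, as a processed transcript for Trib3 and Asns, and as a nonsense-mediated-decay form for Mthfd2. The sources do not say whether such a row also carries the reads of the gene's other transcripts. A further 19 rows of the same genes carried no symbol, and the member's row held 89.9% of the gene's summed counts for Ddit3, 92.9% for Psph, 94.9% for Shmt2 and 98.5% or more for the other members apart from Mthfd2. The Mthfd2 row held 32.6% and reached 5 normalized counts in 7 of 12 cell and 4 of 16 tumor libraries. Values below are normalized counts, the deposited log2(normalized count + 4) with the transform undone, and differences are on that log2 scale. Because of the added 4, a difference understates the change of a low gene. The test was limma across all rows that passed a filter, with Benjamini-Hochberg adjustment and a threshold of 0.05.

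The labels were checked on Nqo1 and Keap1, and Nfe2l2 was read beside them. Nqo1, a standard NRF2 target, was at 474 to 563 in WT cells, 5073 to 5943 in KEAP1-KO cells and 96.5 to 112 in DKO cells, and in tumors at 93.2 to 129 in WT, 3890.4 to 5816 in KEAP1-KO and 34.1 to 72 in DKO. Keap1 itself was at 649 to 751 in WT cells and at 153 to 197 in both edited lines. Nfe2l2, the gene edited in DKO, was not called between KEAP1-KO and DKO (limma adjusted p = 0.6498 in cells and 0.9996 in tumors), at 21 to 32.1 in KEAP1-KO and 19.9 to 39.9 in DKO cells and at 38.4 to 48.9 and 40.2 to 47.1 in the tumors of Experiment B. That row names a single transcript, and its share of the gene's reads was not taken. A frameshift need not change the RNA level, so these values do not check the Nrf2 edit. The carcinoma markers Krt8, Krt18 and Cdh1 summed to 2624.48 to 5251.91 in cells and 1490.95 to 3422.55 in tumors, and Epcam was not listed. Leukocyte markers summed to at most 8.41 in the cell libraries. In tumors they summed to 1634.91 to 2001.4 in WT, 363.25 to 437.05 and 591.45 to 776.41 in KEAP1-KO of Experiments A and B, and 1095.75 to 1741.9 in DKO. In these bulk samples fewer cells of a type and less RNA per cell cannot be told apart.

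**Figure D1:**
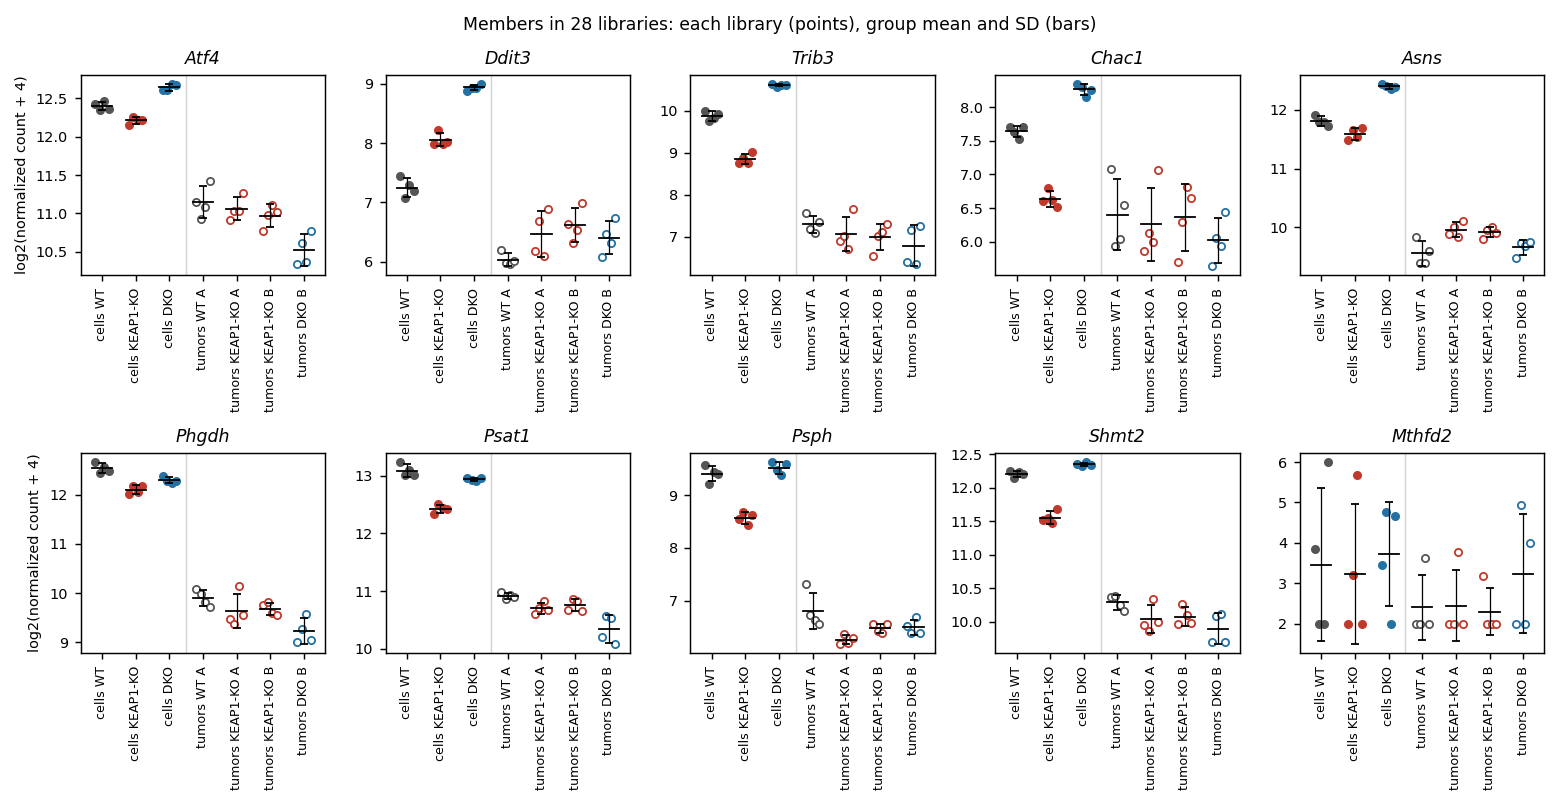
Deposited values of the 10 members in each of the 28 libraries, 1 panel per gene, with log2(normalized count + 4) on the vertical axis, the 7 groups on the horizontal axis, points for libraries and bars for the group mean and SD (n = 4), each panel with its own axis range. Trib3 shows the widest steps, from 426 to 512 normalized counts in KEAP1-KO cells to 1522 to 1605 in DKO cells, while its 4 tumor groups overlap between 77.7 and 198.

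In cultured cells, losing KEAP1 went with less expression of 8 of the 10 genes, and editing Nrf2 on top of it went with more expression of 9 of them. Trib3 and Chac1 were lower in KEAP1-KO and above WT in DKO, Phgdh, Psat1, Psph and Shmt2 were lower in KEAP1-KO and higher again in DKO, with Phgdh still below WT, and Ddit3 alone rose at both steps. KEAP1-KO minus WT cells gave 8 members lower and 1 higher at an adjusted p under 0.05 in limma, where 7.33% of 29744 rows were lower and 8.13% higher. The median log2 difference of the members was -0.55, against 0.02 over all rows. DKO minus KEAP1-KO cells gave 9 members higher and 0 lower, where 3.98% of rows were higher and 4.85% lower, and the member median was 0.80. The comparisons share the KEAP1-KO libraries, so a low value there enters both. Because the members were chosen with earlier results of these data known, the shares of all rows stand beside their counts as a description.

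Atf4, the regulator itself, moved little. Its normalized count was 5487, 5212, 5659 and 5286 in the WT libraries, 4559, 4895, 4769 and 4783 in KEAP1-KO and 6238, 6229.8, 6622 and 6526 in DKO. The 3 groups did not overlap, with KEAP1-KO lowest and DKO highest. Its log2 difference for KEAP1-KO minus WT was -0.19 (SE 0.04, n = 4 and 4, limma adjusted p = 0.003773), a call that was lost without the mean-variance trend (adjusted p = 0.1647). It was higher in DKO than in KEAP1-KO by 0.43 (SE 0.04, limma adjusted p = 7.5e-06), or 1.35-fold. Since ATF4 is set mainly by translation, these mRNA values say nothing of its protein.

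The stress effectors moved further. Trib3, a pseudokinase that restrains AKT and feeds back on ATF4, was counted at 1026, 859, 910.0 and 967 in WT cells, 426, 470.1, 430.0 and 512 in KEAP1-KO and 1605, 1522, 1567 and 1581 in DKO. No library of any genotype reached the range of another. Its KEAP1-KO to WT difference was -1.03 (SE 0.07, limma adjusted p = 4.7e-07), 2.04-fold lower, and its DKO to KEAP1-KO difference was 1.77 (SE 0.07, limma adjusted p = 3.3e-09), 3.40-fold higher.

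Chac1, which degrades glutathione and is induced by ATF4, followed the same order at lower counts. It was at 205, 193, 179.8 and 204 in WT cells, 93.8, 107, 94.3 and 87.7 in KEAP1-KO and 321, 310.0, 281 and 301 in DKO, again without overlap. The differences were -1.0 (SE 0.08, limma adjusted p = 2.3e-06) and 1.62 (SE 0.08, limma adjusted p = 3.3e-08). Ddit3, which encodes the death-linked factor CHOP, ran otherwise. Its counts were 171, 131, 153 and 142 in WT, 249.9, 294, 249.9 and 257 in KEAP1-KO and 470.0, 486, 485 and 509.8 in DKO, so each genotype lay above the one before it. It rose by 0.80 (SE 0.08, limma adjusted p = 2.7e-05) and then by 0.89 (SE 0.08, limma adjusted p = 1.9e-05), and was 3.23-fold higher in DKO than in WT.

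Asns, the asparagine synthetase gene, barely differed at the first step and rose at the second. It was at 3870.0, 3539, 3551 and 3378 in WT cells, 2852, 3234, 2983 and 3306 in KEAP1-KO and 5577, 5430.0, 5243 and 5364 in DKO. The KEAP1-KO libraries lay just below the WT range and the DKO libraries far above both. The first difference was -0.21 (SE 0.05, limma adjusted p = 0.01576), which lost its call without KEAP1-KO replicate 3 (adjusted p = 0.05151) and without the trend (0.1568). The second was 0.81 (SE 0.05, limma adjusted p = 6.2e-07).

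Among the serine synthesis enzymes the last step moved most. Psph, the phosphatase that releases serine, was at 754, 589, 693 and 676 in WT cells, 372, 408, 340.4 and 391 in KEAP1-KO and 785, 705, 665 and 771 in DKO. KEAP1-KO lay apart from both other genotypes, which overlapped. Its differences were -0.83 (SE 0.08, limma adjusted p = 1.9e-05) and 0.95 (SE 0.08, limma adjusted p = 1.0e-05). Psat1, the transaminase before it, was at 9655, 8256, 8744 and 8226 in WT, 5152, 5812, 5555 and 5509.7 in KEAP1-KO and 7972, 7778, 7709 and 7948 in DKO. Here DKO lay between the other genotypes and touched neither range. It fell by 0.66 (SE 0.05, limma adjusted p = 2.0e-06) and rose by 0.51 (SE 0.05, limma adjusted p = 3.0e-05).

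Phgdh, the first and committed enzyme, was the serine gene with the smallest return. It was at 6472, 5573, 6046 and 5734 in WT cells, 4124, 4595, 4225 and 4641 in KEAP1-KO and 5295, 4963, 4837 and 4981 in DKO. The KEAP1-KO deficit was -0.44 (SE 0.05, limma adjusted p = 1.1e-04). The DKO gain of 0.19 (SE 0.05) sat at the threshold, with an adjusted p of 0.04654 in limma, and was not called in 7 of 8 fits that left out 1 library (adjusted p from 0.04261 to 0.1315). Those libraries were DKO replicates 1 to 4 and KEAP1-KO replicates 1, 2 and 3.

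The mitochondrial folate enzymes were seen well for Shmt2 and poorly for Mthfd2. Shmt2 was at 4865, 4532, 4792 and 4718 in WT cells, 2921, 2987, 2829 and 3277 in KEAP1-KO and 5204, 5117, 5335 and 5163 in DKO. It fell by 0.66 (SE 0.04, limma adjusted p = 5.2e-07) and rose by 0.79 (SE 0.04, limma adjusted p = 1.1e-07), past the highest WT library. Mthfd2 was at 10.3, 0, 0 and 60.1 in WT, 0, 5.24, 47.1 and 0 in KEAP1-KO and 6.84, 23.1, 0 and 21.4 in DKO, and no difference was detectable (-0.24, interval -2.47 to 1.999, and 0.49, interval -1.74 to 2.73). Of 3 further Mthfd2 rows that could be tested in cells, none with a symbol, 2 were lower in KEAP1-KO than in WT, with differences of -0.82 (limma adjusted p = 0.04314) and -1.11 (limma adjusted p = 0.01225). The sum of all Mthfd2 rows differed by -1.07, with an adjusted p of 0.1162 in limma.

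Set directly against WT, DKO cells did not return to the WT pattern. They had 6 members higher and 1 lower in limma, where 8.46% of rows were higher and 9.20% lower. Those above WT were the stress genes and Shmt2, with Ddit3 higher by 1.69 (SE 0.08, adjusted p = 4.0e-08), Trib3 by 0.74 (SE 0.07, adjusted p = 7.8e-06), Chac1 by 0.62 (SE 0.08, adjusted p = 1.2e-04), Asns by 0.59 (SE 0.05, adjusted p = 6.5e-06) and Atf4 by 0.24 (SE 0.04, adjusted p = 5.1e-04). The enzymes of serine synthesis were nearer to WT, with Psph at 0.11 (interval -0.07 to 0.29), Psat1 at -0.15 (interval -0.26 to -0.04, limma adjusted p = 0.06813) and Phgdh lower at -0.25 (SE 0.05, adjusted p = 0.007013). Shmt2 was higher by 0.14 (SE 0.04) with a limma adjusted p of 0.04658, a call kept in 1 of 8 fits without 1 library and lost without DKO replicates 1 to 4 and WT replicates 2, 3 and 4. Without the mean-variance trend the Atf4, Phgdh and Shmt2 calls were lost (adjusted p = 0.06522, 0.09672 and 0.3154).

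**Figure D2:**
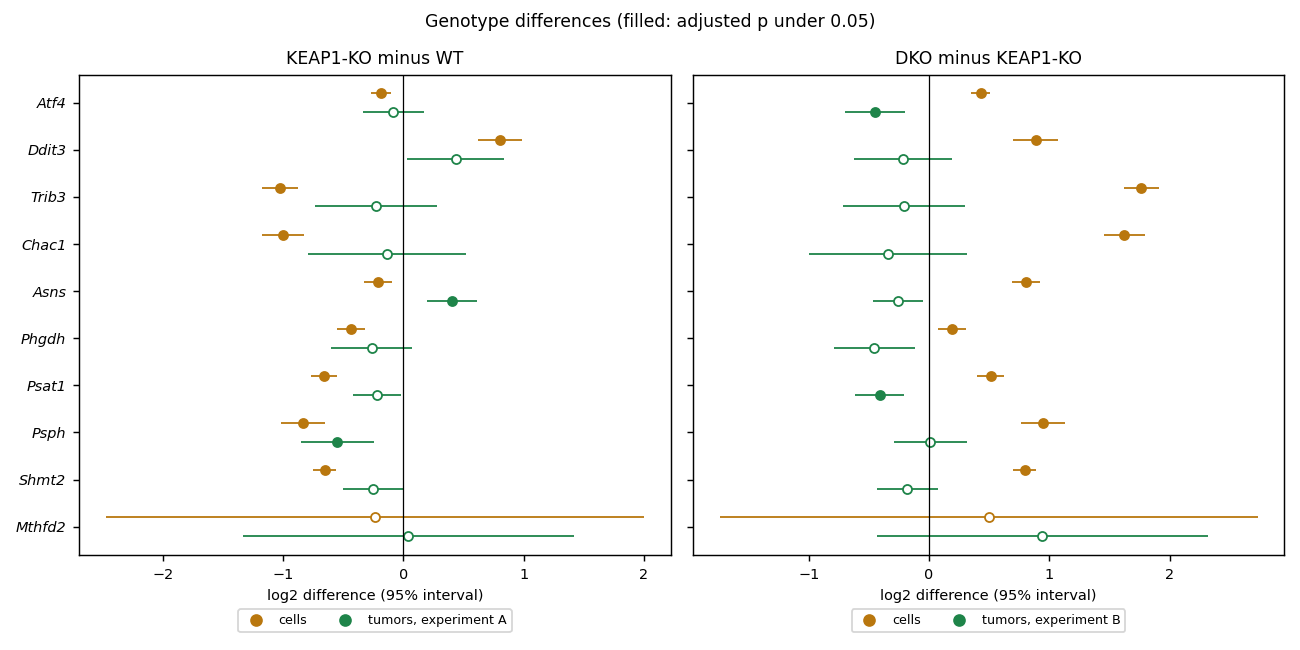
Log2 differences between genotypes for each member in cells and in tumors, with 95% intervals from limma, filled points for calls at an adjusted p under 0.05 and open points for the rest. In cells 8 members are called below 0 for KEAP1-KO minus WT and 9 above 0 for DKO minus KEAP1-KO, while in Experiment B tumors no member is called higher in DKO.

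Fewer members were called between genotypes in tumors than in cells. KEAP1-KO tumors of Experiment A had 1 member higher and 1 lower than WT tumors in limma, where 5.61% of 34215 rows were higher and 7.49% lower. The fitted differences of Trib3, Chac1, Atf4, Phgdh, Psat1, Psph and Shmt2 (below 0) and Ddit3 (above 0) had the sign they had in cells, though only that of Psph was called among these, and those of Asns and Mthfd2 had the other sign. DKO tumors of Experiment B had 0 members higher and 2 lower than KEAP1-KO tumors, where 4.22% were higher and 4.64% lower. The rise of Trib3, Chac1, Ddit3 and the serine enzymes from KEAP1-KO to DKO in culture had no counterpart among the tumor calls. The markers of leukocytes and fibroblasts given beside these groups also differed, fibroblast markers summing to 4296.27 to 11373.24 in WT, 1668.41 to 4468.16 and 2412.01 to 3216.4 in KEAP1-KO of Experiments A and B, and 10359.23 to 14252.09 in DKO tumors. The fibroblast sums were mostly Dcn and Col3a1. Those 2, Lum and Pdgfra had higher group means in DKO than in WT tumors. Col1a1 (9.44 in DKO, 9.64 in WT, log2 scale) and Col1a2 (8.29 and 8.59) had lower ones. In cultured cells the sums ran from 265.67 in WT to 698.87 in DKO. The part of these cell types in the tumor differences was not tested.

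Asns was the member that rose with KEAP1 loss in tumors, opposite in sign to culture. It was at 911, 667, 671 and 772 in WT tumors and 943, 1027, 907 and 1106 in KEAP1-KO tumors, where only WT replicate 1 reached the lowest KEAP1-KO library. The difference was 0.40 (SE 0.10, n = 4 and 4, limma adjusted p = 0.01117) and kept its call in all 8 fits without 1 library. Psph was the member that fell, from 155, 102, 96 and 90 in WT to 68.9, 78.6, 69.6 and 74 in KEAP1-KO, without overlap. Its difference was -0.55 (SE 0.14, limma adjusted p = 0.01639), and a fit of those 2 groups alone did not call it (adjusted p = 0.07016).

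The other serine genes had differences below 0, as Psph did, but were not called. Psat1 was at 2029, 1863, 1940.2 and 1908 in WT tumors and 1549, 1663, 1821 and 1622 in KEAP1-KO tumors, which did not overlap, with a difference of -0.22 (SE 0.10, limma adjusted p = 0.1639). Phgdh was at 1085, 1014, 897 and 835 in WT and 711, 656, 1133 and 746 in KEAP1-KO, and Shmt2 at 1318, 1328, 1210.0 and 1133 against 983, 926, 1289 and 1016. In both, KEAP1-KO replicate 3 stood above the other 3 libraries of its group. The differences of Phgdh and Shmt2 were -0.26 (limma adjusted p = 0.3377) and -0.25 (limma adjusted p = 0.2047) with that library and -0.44 (0.03485) and -0.35 (0.04935) without it.

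Trib3, Chac1, Ddit3 and Atf4 were not called in Experiment A. Trib3 was at 185, 142, 133 and 159.6 in WT tumors and 114, 126, 101 and 198 in KEAP1-KO, a difference of -0.23 (interval -0.74 to 0.28). Chac1 was at 131, 57.2, 62.1 and 90 against 54.5, 65.9, 59.9 and 129, a difference of -0.14 (interval -0.80 to 0.52). Ddit3 was at 69.2, 59.1, 58.5 and 60.3 against 68.9, 99.4, 64.7 and 115, a difference of 0.43 (interval 0.03 to 0.84, limma adjusted p = 0.1705). In the fits that each left out 1 tumor library these differences ran from -0.42 to -0.11 for Trib3, from -0.41 to 0.08 for Chac1 and from 0.29 to 0.56 for Ddit3, none of them called. Atf4 was at 2256, 1938, 2165 and 2742 against 1926, 2081, 2078 and 2467, a difference of -0.08 (interval -0.34 to 0.17). Mthfd2 was at 8.23 in WT replicate 3 and 9.66 in KEAP1-KO replicate 3 and at 0 in the other 6 libraries.

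In Experiment B, Psat1 and Atf4 were lower in DKO than in KEAP1-KO tumors. Psat1 was at 1635, 1852, 1812 and 1613 in KEAP1-KO and 1181, 1506, 1477 and 1078 in DKO, without overlap, a difference of -0.41 (SE 0.10, limma adjusted p = 0.01166). In culture its DKO value was higher. The call was lost without the trend (adjusted p = 0.06001) and in a fit of those 2 groups alone (0.05402). Atf4 was at 1735, 2020.2, 2204 and 2076 in KEAP1-KO and 1292, 1559.8, 1310.5 and 1744 in DKO, where DKO replicate 4 reached the lowest KEAP1-KO library. Its difference of -0.45 (SE 0.12, limma adjusted p = 0.02505) was not called without DKO replicate 1 or 3 or KEAP1-KO replicate 2, 3 or 4 (adjusted p from 0.05873 to 0.0841), nor after quantile normalization (0.1264).

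No other member was called in Experiment B. Phgdh was at 858, 902, 766 and 753 in KEAP1-KO and 513, 615, 762 and 523 in DKO, where DKO replicate 3 lay inside the KEAP1-KO range and the other 3 below it. Its difference was -0.45 (interval -0.79 to -0.12, limma adjusted p = 0.09404), and -0.57 without DKO replicate 3 (0.03672). Asns was at 894, 988, 1024 and 959.5 against 711, 846, 817 and 854, which did not overlap, a difference of -0.26 (limma adjusted p = 0.1288). The remaining enzymes differed less. Shmt2 was at 993, 1221, 1098 and 1001 against 827, 1081, 1100.1 and 822, a difference of -0.18 (interval -0.43 to 0.07). Psph was at 89.8, 81.9, 80.1 and 90.4 against 87.7, 79.3, 98.8 and 80.2, a difference of 0.01 (interval -0.29 to 0.31).

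Trib3 in Experiment B was at 89.8, 127, 134 and 154 in KEAP1-KO and 80, 139, 77.7 and 148 in DKO and the groups overlapped. Its difference was -0.21 (interval -0.72 to 0.30). Chac1 was at 47.9, 74.5, 109 and 96.1 against 46, 62.8, 57.5 and 82.7, a difference of -0.34 (interval -0.997 to 0.316). Ddit3 was at 95.8, 75.4, 88.3 and 123 against 63.6, 84.5, 76.1 and 103, a difference of -0.21 (interval -0.62 to 0.19). In the fits that each left out 1 tumor library these differences ran from -0.36 (without DKO replicate 4) to -0.06 (without DKO replicate 3) for Trib3, from -0.56 to -0.19 (without KEAP1-KO replicates 1 and 3) for Chac1, and from -0.33 (without DKO replicate 4) to -0.09 (without KEAP1-KO replicate 4) for Ddit3, none of them called. Mthfd2 was at 4.99 in KEAP1-KO replicate 1 and at 26.8 and 11.9 in DKO replicates 2 and 4, and at 0 in the other 5 libraries.

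KEAP1-KO tumors were grown in both experiments, on opposite flanks, and can be set side by side. In limma 0 of the 10 members were called between these tumors, where 0.164% of rows were called at the same adjusted p. With so few rows called, that count says little about the members. At an unadjusted p under 0.05 it was also 0, and the share of all rows at that threshold was not taken. The largest differences of members other than Mthfd2 were 0.22 for Psph (interval -0.08 to 0.52) and 0.15 for Ddit3 (interval -0.26 to 0.55). Psph was nevertheless without overlap, at 68.9 to 78.6 in Experiment A and 80.1 to 90.4 in Experiment B. The share of all rows without overlap was not taken.

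DKO and WT tumors can be set against each other only across the experiments, so mouse, flank and genotype cannot be told apart in that comparison. In it 4 members were lower in DKO tumors in limma, where 5.99% of rows were lower. They were Atf4 at -0.62 (SE 0.12, adjusted p = 0.002732), Psat1 at -0.57 (SE 0.10, adjusted p = 9.0e-04), Phgdh at -0.67 (SE 0.16, adjusted p = 0.01079) and Shmt2 at -0.39 (SE 0.12, adjusted p = 0.04598). The Shmt2 call was lost without DKO replicate 1 or 4 or WT replicate 1, 2 or 3 (adjusted p from 0.07956 to 0.138). Trib3, Chac1 and Ddit3, all above WT in DKO cells, were at -0.51 (limma adjusted p = 0.2127), -0.38 (interval -1.04 to 0.27) and 0.37 (interval -0.04 to 0.77) in this comparison.

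Tumors held less RNA of most of these genes than cultured cells of the same genotype. WT tumors had 9 members lower than WT cells in limma, where 14.1% of 37246 rows were lower. KEAP1-KO tumors had 8 lower in Experiment A, where 15.8% of rows were lower, and 8 in Experiment B, where 14.9% were. DKO tumors had 9 lower, where 15.9% were. The members' median differences were -2.04, -1.61, -1.57 and -2.57, against 0.20, 0.16, 0.17 and 0.23 over all rows. A centring on library medians moved the all-row medians to between -0.19 and -0.07 and changed the direction of none of these members' called differences. Tumors contain host cells, whose part in the lower values was not tested. The carcinoma marker sums were 4521.48 to 5251.91 in WT cells and 2577 to 3347.54 in WT tumors, 3242.58 to 3534.98 in KEAP1-KO cells and 2270.32 to 3422.55 and 2119.76 to 2643.75 in KEAP1-KO tumors of Experiments A and B, and 2624.48 to 2693.48 in DKO cells and 1490.95 to 2140.83 in DKO tumors. KEAP1-KO cells and tumors of Experiment A overlapped. These sums were mostly Krt8, and in WT the group means of Krt18 (6.97 in cells, 7.42 in tumors, log2 scale) and Cdh1 (2.18 and 3.91) were higher in tumors.

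The serine synthesis genes were far lower in WT tumors, at -2.64 for Phgdh (SE 0.13, limma adjusted p = 8.3e-15), -2.60 for Psph (SE 0.12, adjusted p = 2.7e-15) and -2.17 for Psat1 (SE 0.08, adjusted p = 4.4e-17). Trib3 was at -2.58, Asns at -2.25 and Shmt2 at -1.92 there. Of the members called in WT, the smallest drops were those of Atf4 (-1.26), Chac1 (-1.23) and Ddit3 (-1.21). In KEAP1-KO the Trib3 difference was -1.78 and -1.86 in the 2 experiments and in DKO it was -3.83 (SE 0.19, adjusted p = 1.0e-14), 14.2-fold lower. Chac1 was not called in KEAP1-KO, at -0.37 (interval -0.88 to 0.14) and -0.28 (interval -0.78 to 0.23), and was at -2.24 in DKO. Without KEAP1-KO replicate 4 of Experiment A its first value was -0.64 (limma adjusted p = 0.03236).

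**Figure D3:**
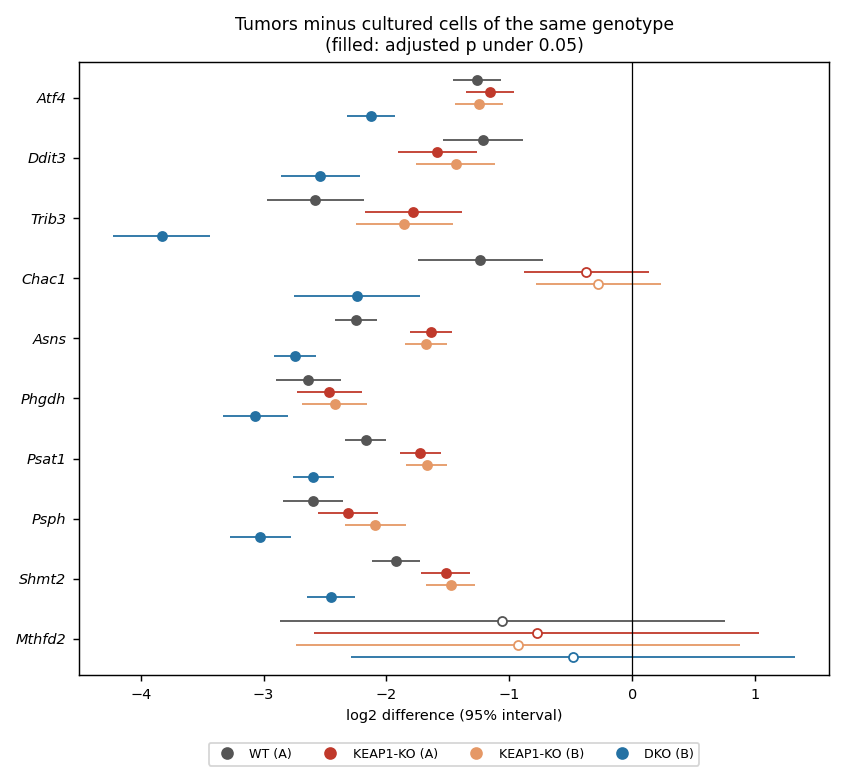
Log2 difference of tumors minus cells for each member in WT, KEAP1-KO of Experiments A and B, and DKO, with 95% intervals from limma, filled points for calls and open points for the rest. In 9 of 10 genes the DKO tumors lie furthest below their cells, from -2.12 for Atf4 to -3.83 for Trib3, and Mthfd2 alone has intervals that all cross 0.

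Whether genotype differences themselves changed from culture to tumor was tested by contrasts of differences in a fit of all 28 libraries. For KEAP1-KO minus WT, 2 members had a higher difference in tumors of Experiment A than in cells and 0 a lower one, where 1.50% of rows were higher and 3.88% lower. They were Asns, with -0.21 in cells and 0.40 in tumors, a change of 0.62 (SE 0.12, limma adjusted p = 0.001125), and Psat1, with -0.66 and -0.22, a change of 0.44 (SE 0.11, limma adjusted p = 0.01886), which was not called without the trend (0.08994). Trib3 (0.80, interval 0.24 to 1.36) and Shmt2 (0.40, interval 0.12 to 0.68) were not called, at adjusted p = 0.0955 and 0.09193 in limma, and both were called after median centring (0.03516 and 0.007075). Chac1 (0.86, interval 0.14 to 1.58) was not called either (0.1927), nor in any of 16 fits without 1 library (adjusted p from 0.06326 to 0.3757). That centring moved the median of all rows for this contrast from -0.05 to 0.11.

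For DKO minus KEAP1-KO 9 members had a lower difference in tumors of Experiment B than in cells and 0 a higher one, where 1.55% of 37246 rows were lower and 2.12% higher. The changes were -1.97 for Trib3 (SE 0.27, limma adjusted p = 4.8e-05), -1.96 for Chac1 (SE 0.35, adjusted p = 9.8e-04), -1.10 for Ddit3 (SE 0.22, adjusted p = 0.003295) and -0.88 for Atf4 (SE 0.13, adjusted p = 1.8e-04). Those of the enzymes were -1.07 for Asns (SE 0.12, adjusted p = 2.1e-06), -0.97 for Shmt2 (SE 0.14, adjusted p = 5.9e-05), -0.93 for Psph (SE 0.17, adjusted p = 0.001112), -0.92 for Psat1 (SE 0.11, adjusted p = 1.2e-05) and -0.65 for Phgdh (SE 0.18, adjusted p = 0.0444). The Phgdh call was lost in 14 of 16 fits without 1 library (adjusted p from 0.01033 to 0.1072), and the other 8 were kept in all 16. Only Mthfd2 was not called (0.45, interval -2.11 to 3.01). The cell differences weigh in both the earlier counts and these contrasts, since the same libraries enter.

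Single tumors differed for several members at a time. In KEAP1-KO tumors of Experiment A, replicate 4 was the highest of its group for Trib3, Asns, Ddit3, Chac1 and Atf4, and replicate 3 for Phgdh, Psat1, Shmt2 and Mthfd2. In DKO tumors replicate 4 was again the highest for those 5 stress genes, while replicate 3 was the highest for Phgdh, Psph and Shmt2. In WT tumors replicate 1 was the highest for 7 members. No test was made of which genes share a high library.

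The genes whose values ran closest to a member across all 28 libraries were named by Pearson's r, as a description, since the points share the split into cells and tumors and the genotypes. They were Gars (r = 0.98) and Atf5 (0.98) for Trib3, Tars and Yars (0.99 each) for Asns, and Sesn2 and Aldh1l2 (0.93 each) for Chac1. Gars, Tars and Yars encode tRNA synthetases, ATF5 is a relative of ATF4, SESN2 senses leucine and restrains mTORC1, and ALDH1L2 is a mitochondrial folate enzyme. For Atf4 they were Trip6 and Eif2s2 (0.98 each), for Ddit3 Cpox and Dnaaf5 (0.96 each), for Phgdh Tomm40 (0.996) and Gtf3a (0.99), for Psat1 Gtf3a and Hnrnpl (0.99 each), for Psph Phf10 (0.99) and Arpin (0.98), and for Shmt2 Phf10 and Mtbp (0.99 each). Mthfd2 reached only 0.66 with E130309D02Rik and 0.62 with Cpm.

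Other genes of the pathway were read from lists. The counts below stand against the shares of all rows called, which for KEAP1-KO minus WT were 8.13% higher and 7.33% lower in cells and 5.61% and 7.49% in tumors, and for DKO minus KEAP1-KO 3.98% and 4.85% in cells and 4.22% and 4.64% in tumors. For the contrast of DKO minus KEAP1-KO between tumors and cells they were 2.12% higher and 1.55% lower. For that of KEAP1-KO minus WT they were 1.50% higher and 3.88% lower. Of the other ATF4 partners and stress targets, 2 of 11 tested were higher and 4 lower in KEAP1-KO than in WT cells, and 6 were higher and 2 lower in DKO than in KEAP1-KO. The list medians were -0.13 and 0.60, against 0.02 and -0.03 over all rows. Atf5 differed by -0.92 (limma adjusted p = 8.0e-07) and 1.15 (1.3e-07), and Sesn2 by -0.45 (5.5e-04) and 1.44 (2.6e-08). Nupr1, a stress-induced chromatin protein gene, was at -1.10 (5.1e-07) in the first comparison. Atf3, a stress factor that other pathways also induce, rose by 2.36 in KEAP1-KO cells (2.4e-09) and by 0.59 in DKO (6.8e-04), in the direction of Ddit3 each time.

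In tumors 2 of 13 genes of that list were higher and 1 lower in KEAP1-KO, and 0 were higher and 3 lower in DKO. Cebpb, a partner of ATF4, rose by 0.37 (limma adjusted p = 0.01326) with KEAP1 loss, and differed by -0.91 (1.1e-05) in DKO against KEAP1-KO. Gdf15, a stress cytokine gene, differed by -0.96 (0.006317) there. The contrast of DKO minus KEAP1-KO between tumors and cells was lower for 4 of 13 genes, Sesn2 (-1.72, limma adjusted p = 7.9e-08) and Atf5 (-1.37, 7.1e-06) among them, and higher for 0.

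The cytosolic tRNA synthetases, which charge tRNAs and include many ATF4 targets, were called in cells in both directions at the first step and in 1 at the second. In cells 5 of 20 were higher and 4 lower in KEAP1-KO than in WT, and 8 were higher and 0 lower in DKO than in KEAP1-KO, with medians of 0.06 and 0.40, against 0.02 and -0.03 over all rows. Gars differed by -0.50 (limma adjusted p = 3.4e-06) and 0.60 (9.0e-07), and Nars and Aars rose by 0.91 (3.6e-07) and 0.85 (7.4e-09) in DKO. In tumors 4 of 20 were higher and 0 lower in KEAP1-KO, and 0 were higher and 3 lower in DKO. Nars was higher by 0.58 (1.1e-04) in KEAP1-KO tumors, and Eprs differed by -0.40 (9.7e-05) in DKO tumors. For 7 of 20 the DKO difference was lower in tumors than in cells and for 0 it was higher.

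Amino acid transporters were called in both directions in cells. In KEAP1-KO against WT 3 of 11 were higher and 4 lower, and in DKO against KEAP1-KO 3 were higher and 3 lower. Slc7a11, the cystine carrier and a target of both NRF2 and ATF4, rose by 1.64 (limma adjusted p = 9.2e-09) and then differed by -2.06 (9.6e-10), with signs opposite to those of Trib3. Slc7a5, a carrier of large neutral amino acids, rose by 1.12 in DKO (3.6e-09), and the arginine carrier Slc7a3 differed by -1.86 (4.1e-07) and 0.89 (3.8e-04). Slc38a2, a glutamine carrier, was at -0.72 in KEAP1-KO (5.1e-06).

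Slc1a4 and Slc6a9 were, with Slc7a11, the transporter genes named for tumors by the size of their called differences. In KEAP1-KO tumors 3 of 12 transporters were higher and 2 lower, and in DKO tumors 0 were higher and 3 lower. Slc1a4, which carries serine and alanine, rose by 0.58 with KEAP1 loss in cells (limma adjusted p = 4.4e-06) and by 1.50 in tumors (3.7e-06). Slc6a9, the glycine carrier GlyT1, rose by 0.44 (5.4e-05) in cells and 1.51 (5.8e-06) in tumors. Against KEAP1-KO, DKO was at -0.76 (5.2e-07) in cells and -1.93 (5.2e-07) in tumors for Slc1a4, and at -0.54 (1.4e-05) and -1.76 (2.5e-06) for Slc6a9. Phgdh, Psat1 and Psph had fewer reads in KEAP1-KO than in WT cells, while these carriers had more. The carriers' KEAP1-KO differences were higher in tumors than in cells, by 0.92 for Slc1a4 (limma adjusted p = 6.9e-04) and 1.07 for Slc6a9 (2.3e-04). Over the list, 4 of 12 had a higher difference in tumors than in cells for KEAP1-KO minus WT and 0 a lower one, and for DKO minus KEAP1-KO 0 had a higher and 6 a lower one. For DKO minus KEAP1-KO the change from cells to tumors was -1.17 (8.0e-05) and -1.22 (9.6e-05). Slc7a11 was at 2.95 (3.1e-05) in KEAP1-KO and -4.05 (2.6e-06) in DKO tumors.

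Among folate enzymes and the glycine cleavage system, 5 of 17 were higher and 3 lower in KEAP1-KO cells, and 2 were higher and 2 lower in DKO. Aldh1l2 differed by -1.43 (limma adjusted p = 5.1e-10) and 1.55 (1.4e-10) in cells, as Shmt2 did in sign, and in tumors it was at 0.05 (0.929) and -0.28 (0.5384). Gldc, the glycine decarboxylase gene, had the opposite signs, 0.78 (2.1e-05) and -1.73 (1.8e-08) in cells and 1.32 (1.4e-06) and -1.24 (5.2e-06) in tumors. Atic, of purine synthesis, rose by 1.05 (1.1e-08) in KEAP1-KO cells and 0.69 (3.2e-06) in KEAP1-KO tumors. In tumors 3 of 16 of the list were higher and 1 lower in KEAP1-KO, and 0 were higher and 3 lower in DKO.

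Other amino acid enzymes moved in both directions. In KEAP1-KO cells 3 of 10 were higher and 2 lower, and in DKO 2 were higher and 0 lower. Gpt2, which makes alanine from glutamate and pyruvate and is a known ATF4 target, was at -0.77 (limma adjusted p = 5.3e-06) and 1.46 (1.9e-08), and Pycr1 of proline synthesis was at -0.87 (3.2e-05) and 0.85 (5.9e-05). In tumors 3 of 10 were higher and 1 lower in KEAP1-KO and 0 higher and 1 lower in DKO. Gpt2 was higher by 0.55 (0.01811) in KEAP1-KO tumors, so it changed sign from cells to tumors as Asns did, by 1.32 (9.4e-06).

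The genes upstream of ATF4 were the eIF2alpha kinases, phosphatase subunits, and subunits of eIF2 itself and of its exchange factor eIF2B. Of these, 3 of 11 were higher (8.13% of all rows) and 0 lower in KEAP1-KO cells. They were Eif2s1 at 0.45 (limma adjusted p = 3.3e-04), Eif2b4 at 0.48 (0.001765) and Eif2b3 at 0.41 (0.008216). In DKO against KEAP1-KO cells 0 of 11 were called, in KEAP1-KO tumors 0 of 12, and in DKO tumors 0 were higher and 3 of 12 lower (4.64% of all rows). The list medians of these comparisons were -0.12, -0.03, -0.01 and -0.18, against 0.02, -0.03, -0.03 and 0 over all rows. The 3 lower in DKO tumors were Eif2s1 (-0.39, limma adjusted p = 0.001667), Eif2s2 (-0.37, 0.002526) and Eif2b3 (-0.35, 0.01216). All genes called in these comparisons were subunits of eIF2 or eIF2B, with no kinase or phosphatase subunit among them.

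The other arms of the unfolded protein response, run by ATF6 and by IRE1 through XBP1, were called mostly in one direction per comparison. In cells 1 of 17 genes was higher and 10 were lower in KEAP1-KO, and 9 were higher and 0 lower in DKO. In tumors 0 of 18 were higher and 8 lower in KEAP1-KO, and 5 were higher and 0 lower in DKO. Single genes departed from these counts. Ern1, which encodes IRE1, was at -1.45 (limma adjusted p = 0.1516) in KEAP1-KO cells and 1.33 (0.2884) in KEAP1-KO tumors, and for DKO minus KEAP1-KO at 2.31 (0.03548) in cells and -0.19 (0.93) in tumors. Edem1 was at 0.97 (0.02926) in KEAP1-KO cells and -0.26 (0.7533) in KEAP1-KO tumors. The medians were -0.26 and 0.42 in cells and -0.25 and 0.25 in tumors. The chaperone gene Hspa5 differed in DKO against KEAP1-KO by 0.42 in cells (limma adjusted p = 2.9e-05) and 0.42 in tumors (8.5e-04), and its cochaperone gene Dnajb11 by 0.55 (1.5e-04) and 0.57 (2.0e-05). Sdf2l1 was at -0.49 (2.3e-04) in KEAP1-KO cells and -0.63 (3.9e-05) in KEAP1-KO tumors. For DKO minus KEAP1-KO, 0 of 19 had a lower difference in tumors than in cells and 1 a higher one, Sdf2l1 (0.48, limma adjusted p = 0.004536), where 9 of the 10 members and 6 of the 12 transporters had a lower one. The difference between these counts was not tested.

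**Figure D4:**
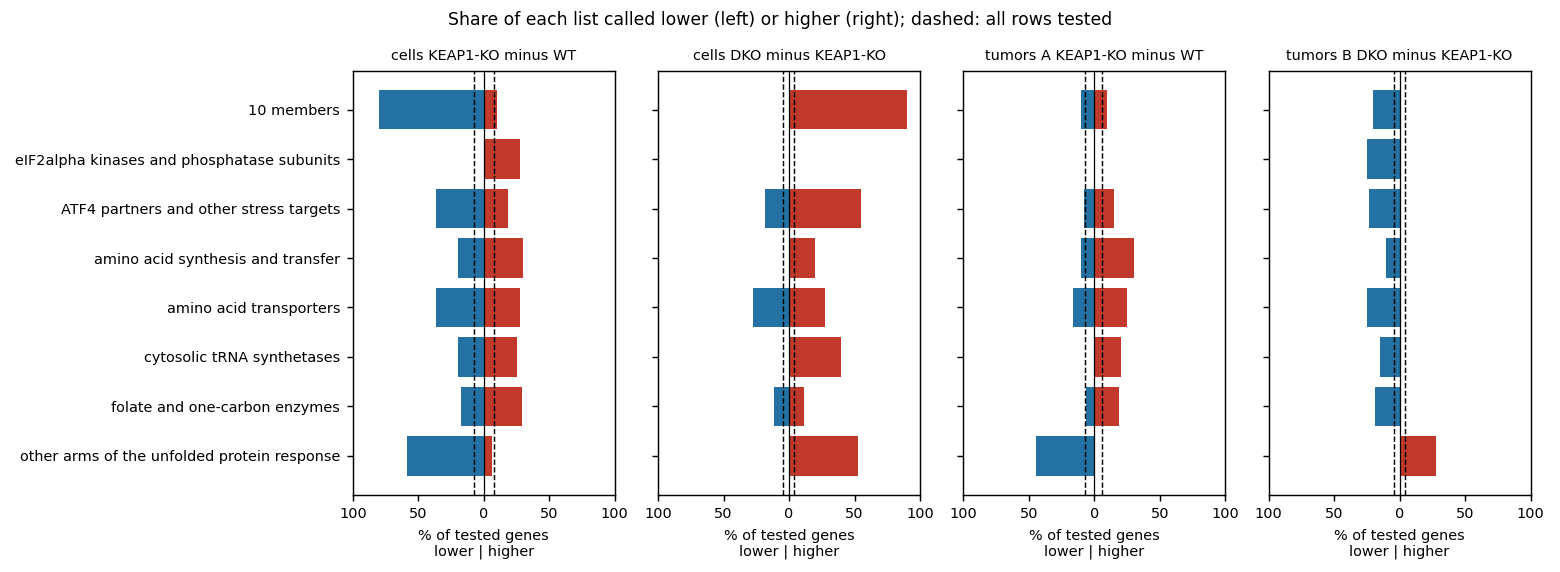
Share of tested genes called higher (to the right) or lower (to the left) for the members and each pathway list, in cells and tumors, for KEAP1-KO minus WT and DKO minus KEAP1-KO, with dashed lines at the shares over all rows tested. The members have 8 of 10 called lower and then 9 of 10 called higher in cells, against 1 higher and 1 lower, and 2 lower, in tumors, while the other arms of the unfolded protein response have 8 of 18 lower and then 5 of 18 higher in tumors.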

How the data were processed

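Libraries were grouped by the sample titles. The extraction text of the labels names mouse liver, whereas the titles and the study describe 3LL cells and tumors, and the titles were followed. Per the study's methods and the labels, the authors removed ribosomal RNA, made strand-specific libraries, sequenced them with paired reads, quantified GENCODE mouse transcripts with Salmon and worked in iDEP. The methods speak of TPM, but the table deposited by the authors holds log2 values, log2(normalized count + 4): the lowest value was 2 in each library, and undoing the transform gave whole reads times 1 factor per library for 100% of values up to 20 reads (within 0.05 of a read). The design assumed TPM. The planned limma test was kept and its filter restated in normalized counts. Salmon divides reads among similar transcripts, so reads shared with pseudogenes or other copies cannot be placed.

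A row entered a fit when 4 or more of its libraries had 5 or more normalized counts. The test was run with limma 3.58.1 (R 4.3.3, empirical Bayes with a mean-variance trend) on the 12 cell libraries (29744 rows), the 16 tumors (34215 rows) or all 28 libraries (37246 rows), with Benjamini-Hochberg adjustment over all rows. Intervals are 95%. The procedure was tested on simulated data. Members and lists were chosen with earlier results of these data known. All members were named, and of each list the 3 called genes with the largest differences per comparison, with their values elsewhere, though not all of these are reported here. Other genes of the lists that are named for a contrast between tumors and cells follow from that choice. The alternatives were no filter, a mean of at least 25 normalized counts, a pseudocount of 0.4, quantile and median scaling, no trend, only the 2 groups compared, the replicate number as a block and leaving out each library. The sum of all rows of a gene, and the alternatives for comparisons without planned ones, were added after seeing the data. The number of value columns not assigned to a sample was 0. Normalized counts carry counting error that depends on the depth of 4222365 to 7524264 reads: 13.9% to 23.5% of rows were at 0 in a library.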

Additional observations from a re-analysis of the deposited data

Results flagged for a closer look

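Single tumors stood apart from the other 3 of their group for Mthfd2 only, by the gap to the nearest library relative to the range, on the log2(normalized count + 4) scale where 2 is a count of 0. They were KEAP1-KO replicate 3 in Experiment A (3.77), KEAP1-KO replicate 1 in Experiment B (3.17) and WT replicate 3 in Experiment A (3.61), each with the other 3 libraries at 0. In all 70 groups of 4 were checked and 3 were marked, by a rule meant to mark about 1 in 20 by chance. That rate does not apply to these marks. With 3 libraries tied at 0 the gap equals the range whatever the other count is.

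The effect of genotype differed between culture and tumors by a limma test of the difference itself for these members. For KEAP1-KO minus WT it was higher in tumors of Experiment A than in cells for Asns (0.62) and Psat1 (0.44). For DKO minus KEAP1-KO it was lower in tumors of Experiment B than in cells for Trib3 (-1.97), Chac1 (-1.96), Ddit3 (-1.10), Asns (-1.07), Shmt2 (-0.97), Psph (-0.93), Psat1 (-0.92), Atf4 (-0.88) and Phgdh (-0.65).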

How the results depend on the processing

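Of 1893 values of single members under alternatives, 1780 kept direction and side of the threshold, 61 lost a call, 13 gained one and 39 changed sign. Every change of sign was in a value that was not called. The cause of each change was not tested.

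The number of members called lower in DKO than in WT cells (1) was 2 with a mean of at least 25 normalized counts, 2 after quantile normalization, 2 for the sum of all rows of a gene and 0 without the trend. That of KEAP1-KO tumors of Experiment A (1) was 0 in a fit of the 2 groups alone and 1 to 3 without 1 library, 3 being without KEAP1-KO replicate 3. That of DKO tumors of Experiment B (2) was 1 after quantile normalization, 0 without the trend, 1 for the 2 groups alone and 1 to 2 without 1 library, 1 being without DKO replicate 1 or KEAP1-KO replicate 2, 3 or 4. The number with a higher KEAP1-KO difference in tumors than in cells (2) was 1 without the trend and 4 after median centring.

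Summing all rows reversed Mthfd2 in DKO minus WT cells (-0.79), KEAP1-KO minus WT tumors (-1.08), DKO minus WT tumors (-0.48), KEAP1-KO tumors B minus A (0.59) and in the change of the KEAP1-KO (-0.0088) and DKO (-0.27) differences from cells to tumors. Leaving out 1 library at a time, Mthfd2 ranged from -1.06 to 0.61 in KEAP1-KO minus WT cells, -0.23 to 1.10 in DKO minus WT cells, -0.0943 to 0.19 in KEAP1-KO minus WT tumors, -1.22 to 0.0402 in KEAP1-KO tumors of Experiment A minus cells, and -0.57 to 1.10 and -0.37 to 0.86 in those changes. In KEAP1-KO minus WT tumors Chac1 ranged from -0.41 to 0.0849 and Atf4 from -0.16 to 0.0095, and in DKO minus KEAP1-KO tumors Psph from -0.0517 to 0.0491. In KEAP1-KO tumors B minus A the ranges were -0.19 to 0.12 for Trib3, -0.0462 to 0.22 for Phgdh, -0.0214 to 0.14 for Shmt2, -0.0517 to 0.36 for Chac1 and -0.0837 to 0.0111 for Asns.

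Replicate numbers were not taken to pair libraries: the correlation of same-numbered libraries' deviations ranged from -0.07 to 0.09 over 20 pairs, 6 of which correlated best with their own number. Of these, 4 were all numbers of DKO minus WT cells (0.03 to 0.09). With the replicate block the calls over all rows went from 4599 to 4063 and from 2627 to 2182 in KEAP1-KO minus WT and DKO minus KEAP1-KO cells, from 5254 to 4646 in DKO minus WT cells, and from 4483 to 4411 and 3031 to 2988 in the tumor experiments. Under the block Phgdh in DKO minus KEAP1-KO cells (adjusted p = 0.107) and Shmt2 in DKO minus WT cells (0.08783) were not called by limma, and no other member's call changed. The member row of Mthfd2, at 0 in 5 cell and 11 tumor libraries, gave no call in any comparison.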
